A study of Homo sapiens with 6 samples.

Results

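The transcripts of 7 A-kinase anchoring proteins and 3 regulatory subunits of protein kinase A (PKA) were followed in SKOV3 ovarian cancer cells kept with fenbendazole or with its solvent. The 10 genes are AKAP12, C2orf88, AKAP1, AKAP8, AKAP9, AKAP11, AKAP13, PRKAR1A, PRKAR2A and PRKAR2B, taken by symbol from a deposited table of 61552 genes. All 10 passed the filter on low counts that left 17363 genes for testing. They were chosen on the counts of this same comparison, in which AKAP12 was strongly higher and C2orf88 strongly lower with fenbendazole. Their differences between the groups, and whether they passed a threshold in any fit, are therefore given as a description, without p-values.

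SKOV3 is a long-established line of human ovarian carcinoma with amplified ERBB2, and fenbendazole is an anthelmintic of the benzimidazole class, which acts on tubulin. One group received fenbendazole at 1 µM for 48 h and the other DMSO for 48 h, at a concentration that the labels do not give. Each group held 3 libraries of poly(A) RNA, named here by the numbers in their titles as fenbendazole 7, 8 and 9 and DMSO 10, 11 and 12. The design asks how the drug changes the transcriptome of this single cell line. The labels do not say that the libraries came from separate cultures, so spread and p-values describe these libraries, and part of that spread may be technical.

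PKA is a tetramer of a pair of regulatory and a pair of catalytic subunits. Cyclic AMP (cAMP) binds the regulatory subunits and frees the catalytic ones, which phosphorylate nearby proteins. A-kinase anchors bind the regulatory subunits through a short helix and hold the enzyme at one place in the cell, often beside the phosphatases, phosphodiesterases and other kinases that shape its signal.

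AKAP12 and C2orf88 are the transcripts on which the comparison turns, and the stretches before their annotated starts are shown so that the regions can be compared. AKAP12, also called gravin, is a large scaffold at the plasma membrane and cytoskeleton that binds PKA and protein kinase C. Its gene lies at chr6:151239967-151358559 on the plus strand (GRCh38). C2orf88 encodes the small membrane AKAP, a short protein anchored by lipids in the plasma membrane that binds type I regulatory subunits. Its gene lies at chr2:189879609-190203484 on the plus strand, and RefSeq lists it under the symbol AKAP19. All 10 genes had at least 1 promoter window in the RefSeq table (GRCh38.p14). The windows below run 5′ to 3′ on the plus strand and end before the first base of any exon in GENCODE release 29. Capitals mark the E-box CACGTG, the GC box written here as GGGCGG and the TEAD element written as GGAATG, searched on both strands. These motifs were picked after the sequences had been seen.
AKAP12 start 1, chr6:151239717-151239966: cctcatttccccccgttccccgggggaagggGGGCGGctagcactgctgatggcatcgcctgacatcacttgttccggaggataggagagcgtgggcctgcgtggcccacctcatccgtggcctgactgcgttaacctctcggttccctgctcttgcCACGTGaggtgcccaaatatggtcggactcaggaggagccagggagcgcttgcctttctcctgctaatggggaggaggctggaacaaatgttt
AKAP12 start 2, chr6:151325281-151325530: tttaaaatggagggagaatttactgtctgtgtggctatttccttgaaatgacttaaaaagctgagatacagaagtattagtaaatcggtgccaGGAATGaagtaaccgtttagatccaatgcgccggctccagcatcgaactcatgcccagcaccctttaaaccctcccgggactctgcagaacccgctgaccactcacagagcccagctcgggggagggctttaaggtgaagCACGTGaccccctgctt
AKAP12 start 3, chr6:151341456-151341685: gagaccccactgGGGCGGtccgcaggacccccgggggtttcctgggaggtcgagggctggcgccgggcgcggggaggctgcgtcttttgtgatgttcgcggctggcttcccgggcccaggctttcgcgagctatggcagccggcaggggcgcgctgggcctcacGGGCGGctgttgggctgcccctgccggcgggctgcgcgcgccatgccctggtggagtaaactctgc
C2orf88, chr2:190137527-190137759: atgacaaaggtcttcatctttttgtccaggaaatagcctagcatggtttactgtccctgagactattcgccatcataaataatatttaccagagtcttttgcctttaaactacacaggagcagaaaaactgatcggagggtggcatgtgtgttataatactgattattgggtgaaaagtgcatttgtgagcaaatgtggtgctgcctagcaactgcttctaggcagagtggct

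The first AKAP12 window holds 1 CACGTG and 1 GGGCGG, the second 1 CACGTG and 1 GGAATG, and the third 2 GGGCGG. No match overlaps another. The C2orf88 window holds none of the 3, and TGACG, the core of the site that CREB binds, is in none of the 4 windows. That C2orf88 window lies inside the gene span, which begins at chr2:189879609, and no window before the first base of the span is shown. The missing matches therefore apply to this window and not to every C2orf88 start. Of 35116 windows of 250 bases in the table, 6.34% hold CACGTG, 42.6% GGGCGG, 11.9% GGAATG and 21.2% TGACG. A match is a string of letters and not a measured site. GENCODE release 29 lists 5 transcripts with 5 starts for AKAP12 and 9 with 9 for C2orf88, and counts summed per gene cannot tell which start was used.

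Total counts ran from 14127578 to 17452459 in the fenbendazole libraries and from 13170775 to 22128930 in the DMSO libraries. The level of 3 counts in a library was therefore 0.136 to 0.228 CPM (counts relative to library size, set by TMM in what follows), far below all 10 transcripts. DMSO 11 stood apart. Its median absolute log2 difference to the other libraries was 0.52, against 0.28 to 0.30 for the other 5. Its transcripts in the top GC quartile stood 1.23 higher, relative to the bottom quartile, than the average library on the log2 scale, against -0.37 to -0.15 in the other 5. Results that depend on it are therefore also given without it. Of 8 epithelial and ovarian markers, 7 had a mean of at least 1 FPKM (fragments scaled to transcript length and library size), with ERBB2 at 836 to 934 FPKM in the fenbendazole libraries and 1618 to 3408 FPKM in the DMSO libraries. MUC16 was below 1 FPKM. Of 4 leukocyte markers none reached 1 FPKM and CD3E was at 0. Their summed level was 0.201 to 0.363 FPKM with fenbendazole and 0.0264 to 0.186 FPKM with DMSO. Of the other markers, COL1A1 and COL1A2 among 4 fibroblast genes and PECAM1 among 3 endothelial genes reached 1 FPKM. Their part in the results was not tested.

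AKAP12 was 4.84-fold higher with fenbendazole and C2orf88 was 3.58-fold lower, while the other 8 transcripts differed by at most 1.31-fold in either direction. With edgeR's quasi-likelihood test at a Benjamini-Hochberg adjusted p of 0.05, 2 of the 10 genes passed, 1 higher and 1 lower. Among all tested genes 4.03% passed, 3.11% higher and 0.921% lower, and nothing is read from the members' count because these calls guided their choice. In numbers, 540 genes passed as higher and 160 as lower, and 455 and 231 with upper-quartile scaling. The fenbendazole and DMSO libraries did not overlap for AKAP12, which was higher, and for C2orf88, AKAP13 and PRKAR1A, which were lower. Over all tested genes, 32.6% did not overlap, 17.0% higher and 15.5% lower. Without DMSO 11, 4 of the 10 passed, beside 22.3% of 17689 tested genes (13.1% higher, 9.23% lower). With offsets for GC content and transcript length, 3 passed, beside 21.8% of 16975 genes (11.6% higher, 10.2% lower). AKAP1, AKAP8, AKAP9, AKAP11, PRKAR2A and PRKAR2B overlapped between the groups with all libraries.

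**Figure D1:**
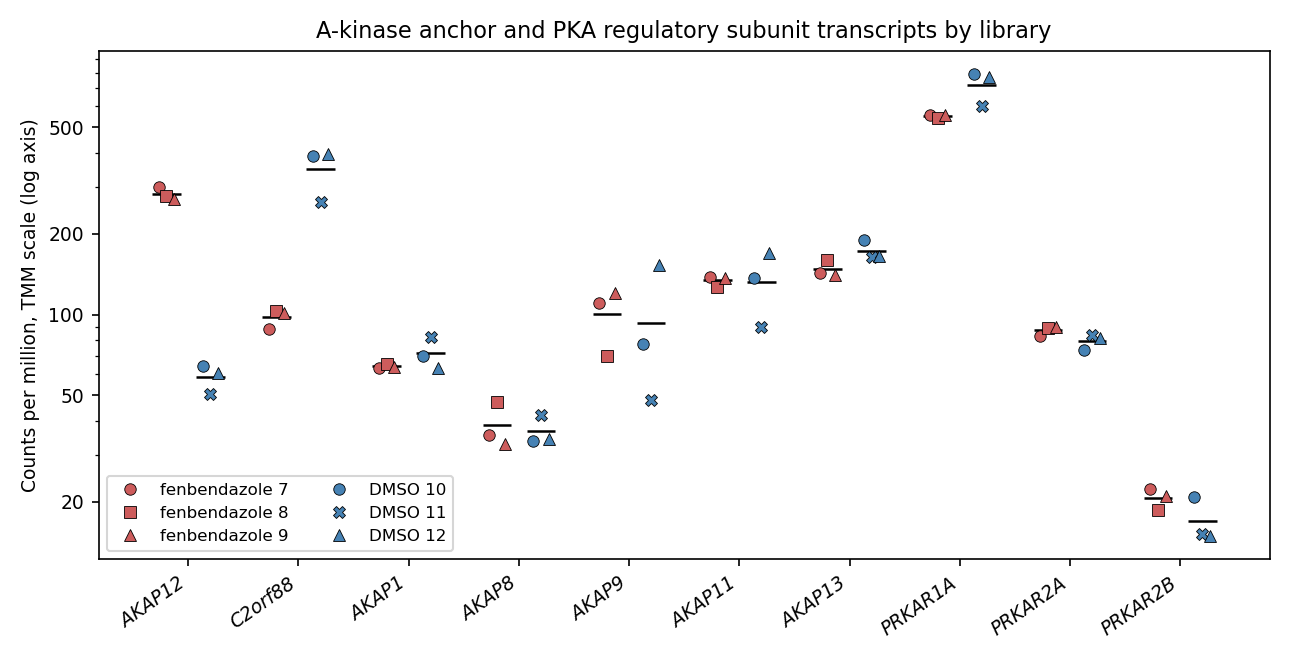
CPM (TMM scale, log axis) of the 10 transcripts in each of the 3 fenbendazole libraries and the 3 DMSO libraries, with a bar at each group's mean. AKAP12 lies at 269.95 to 300.2 CPM with fenbendazole and at 50.5 to 64.1 CPM with DMSO, C2orf88 shows the opposite order, and the cross of DMSO 11 lies lowest among the DMSO libraries for AKAP12, C2orf88, AKAP9, AKAP11, AKAP13 and PRKAR1A.

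AKAP12 had 300.2, 277 and 269.95 CPM in fenbendazole 7, 8 and 9, against 64.1, 50.5 and 60.5 CPM in DMSO 10, 11 and 12. Every fenbendazole library was far above every DMSO library, and the spread within each group was small beside the gap. The means were 282 ± 15.8 CPM with fenbendazole and 58.3 ± 7.06 CPM with DMSO (SD, n = 3 each), a log2 fold change of 2.28 ± 0.14 (SE). It was 2.19 without DMSO 11 and 2.30 with offsets for GC content and transcript length. Among 17363 genes it was the 117th largest log2 fold change. Per length, AKAP12 stood at 32.1 ± 1.15 FPKM with fenbendazole and 7.65 ± 0.71 FPKM with DMSO. In RNA from a whole culture, a larger share of cells with a transcript and more of it per cell cannot be told apart, here and in all comparisons that follow. The AKAP12 span also holds 3 small RNA genes or pseudogenes, each with 0 counts in the 6 libraries.

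C2orf88 had 88.6, 103 and 102 CPM in fenbendazole 7, 8 and 9, against 391, 263 and 396 CPM in DMSO 10, 11 and 12. All fenbendazole libraries lay below all DMSO libraries, and DMSO 11 came closest to them. The means were 97.8 ± 7.999 CPM with fenbendazole and 349.9 ± 75.3 CPM with DMSO (SD, n = 3 each), a log2 fold change of -1.84 ± 0.19 (SE). This was the 110th most negative of 17363 genes. It was -2.001 without DMSO 11 and -2.13 with the offsets. Per length, C2orf88 stood at 21.9 ± 2.32 FPKM with fenbendazole and 83.8 ± 8.85 FPKM with DMSO. Its span overlaps, in whole or in part, HIBCH and MSTN on the opposite strand and the pseudogene HNRNPCP2 on its own strand. Whether the counting used strand is not given in the sources used here, so reads shared with these genes cannot be separated. HIBCH, which encodes an enzyme of valine breakdown, had a log2 fold change of -0.19 ± 0.21, with a mean of 452 counts with fenbendazole and 589 counts with DMSO, and it did not pass the threshold (edgeR adjusted p = 0.627). HNRNPCP2 averaged 26 counts with fenbendazole and 18.3 counts with DMSO, and MSTN 30 counts with fenbendazole and 27.7 counts with DMSO. HNRNPCP2 and MSTN counts are small beside the 1338 to 1724 C2orf88 counts of the fenbendazole libraries and the 5324 to 7013 of the DMSO libraries. The HIBCH counts are not small beside the C2orf88 counts of the fenbendazole libraries.

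**Figure D2:**
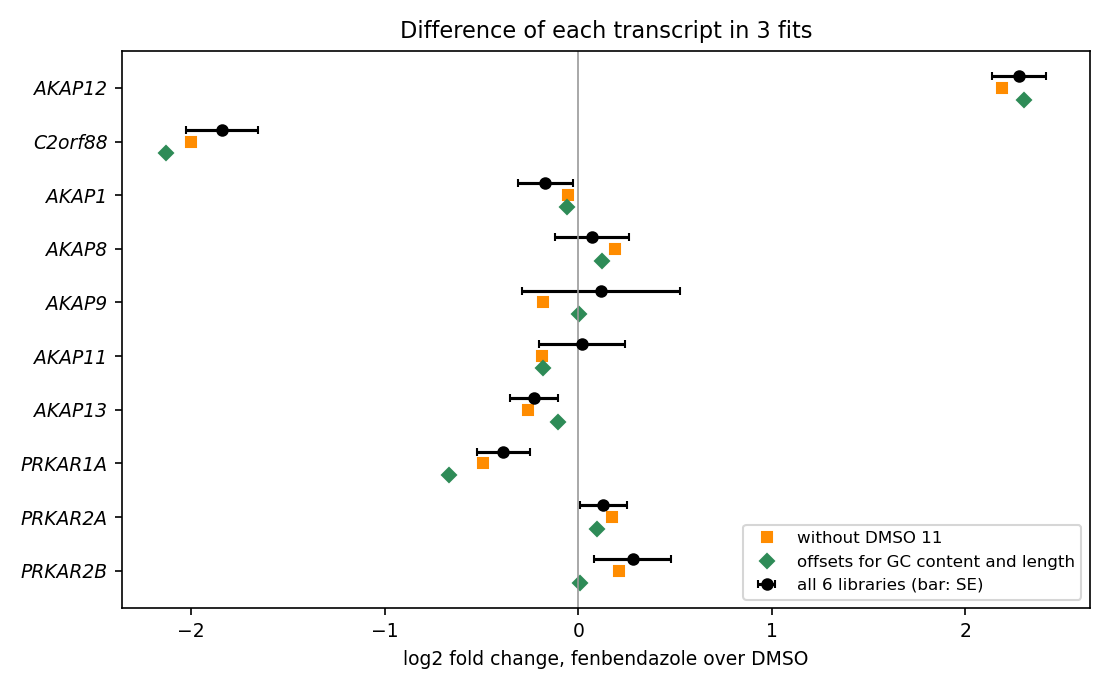
Log2 fold change, fenbendazole over DMSO, of each transcript from all 6 libraries (circle, bar 1 SE), without DMSO 11 (square) and with offsets for GC content and length (diamond). AKAP12 stays between 2.19 and 2.30 and C2orf88 between -2.13 and -1.84, while AKAP9 and AKAP11 change sign without DMSO 11 and PRKAR1A moves to -0.67 with the offsets.

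The other 5 anchors serve other places in the cell. AKAP1 (chr17:57085092-57121346, plus strand) holds PKA at the outer mitochondrial membrane. It averaged 64.0 ± 1.09 CPM with fenbendazole and 71.98 ± 9.87 CPM with DMSO, a log2 fold change of -0.17 ± 0.14. The groups overlapped, and DMSO 11 was the highest of the 6 libraries at 82.7 CPM. AKAP8 (chr19:15353385-15379815, minus strand) encodes a nuclear anchor with a part in chromosome condensation. It averaged 38.6 ± 7.62 CPM with fenbendazole and 36.7 ± 4.72 CPM with DMSO. Its log2 fold change of 0.07 ± 0.19 was smaller than its error and turned negative in 3 of 15 other settings, down to -0.10.

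AKAP9 (chr7:91940840-92110673, plus strand) encodes a very large protein of the centrosome and Golgi that takes part in microtubule nucleation. It had 110.5, 70.1 and 120.3 CPM in fenbendazole 7, 8 and 9, against 77.5, 48.1 and 153 CPM in DMSO 10, 11 and 12. The DMSO libraries enclosed all fenbendazole libraries, and AKAP9 varied most of the 10 transcripts within both groups, with a coefficient of variation of 26.6% with fenbendazole and 58.1% with DMSO. Its log2 fold change was 0.12 ± 0.41 with all libraries and -0.18 without DMSO 11. Its span overlaps CYP51A1, an enzyme gene of cholesterol synthesis on the opposite strand, which averaged 1220.3 counts with fenbendazole and 1186 counts with DMSO. AKAP11 (chr13:42272152-42323261, plus strand) encodes an anchor that also binds the kinase GSK3 and protein phosphatase PP1. It had 139, 127 and 137 CPM in fenbendazole 7, 8 and 9, against 137, 89.4 and 170.3 CPM in DMSO 10, 11 and 12. Again the DMSO values lay on both sides of the fenbendazole values. The log2 fold change was 0.02 ± 0.22 with all libraries, -0.19 without DMSO 11, and of opposite sign to the full fit in 5 of 15 other settings.

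AKAP13 (chr15:85380571-85749358, plus strand) encodes an anchor that is also an exchange factor for a small GTPase. It had 142, 159 and 139.9 CPM in fenbendazole 7, 8 and 9, against 189, 164 and 165 CPM in DMSO 10, 11 and 12. The fenbendazole libraries were all lower, but fenbendazole 8 and DMSO 11 were only a few CPM apart. The means were 147 ± 10.6 CPM with fenbendazole and 173 ± 14.3 CPM with DMSO, a log2 fold change of -0.23 ± 0.12. AKAP13 did not pass the threshold with all libraries and passed it without DMSO 11 at a log2 fold change of -0.26. In that fit 22.3% of all tested genes passed, and nothing is read from the AKAP13 call. With the offsets for GC content and length the AKAP13 log2 fold change was -0.11.

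The regulatory subunits decide which anchors a PKA tetramer can bind. PRKAR1A (chr17:68511780-68551319, plus strand) encodes the type I alpha subunit, whose inherited loss causes Carney complex. It had 558, 543 and 556 CPM in fenbendazole 7, 8 and 9, against 792, 602 and 772 CPM in DMSO 10, 11 and 12. The fenbendazole libraries lay close together below all DMSO libraries, and DMSO 11 again came nearest. The means were 552 ± 8.08 CPM with fenbendazole and 722 ± 105 CPM with DMSO, a log2 fold change of -0.39 ± 0.14. PRKAR1A did not pass the threshold with all libraries and passed it without DMSO 11, at a log2 fold change of -0.49. It also passed with the offsets, at -0.67. The 4 members that passed without DMSO 11 were AKAP12, C2orf88, AKAP13 and PRKAR1A, and AKAP13 was not among the 3 that passed with the offsets. Of all tested genes, 22.3% passed without DMSO 11 and 21.8% with the offsets. Both fits reuse the libraries on which the members were chosen, so nothing is read from these calls of members.

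PRKAR1A overlaps FAM20A on the opposite strand, which encodes a pseudokinase of the secretory pathway. FAM20A averaged 68.3 counts with fenbendazole and 289.7 counts with DMSO, and its log2 fold change was -1.77. Its reads are few beside the 7526 to 9442 PRKAR1A counts of the fenbendazole libraries and the 10385 to 14212 of the DMSO libraries. PRKAR2A (chr3:48744597-48847874, minus strand) encodes the type II alpha subunit that most anchors bind tightly. It averaged 87.2 ± 3.66 CPM with fenbendazole and 79.8 ± 5.42 CPM with DMSO, with overlapping groups and a log2 fold change of 0.13 ± 0.12. PRKAR2B (chr7:107044705-107161811, plus strand) encodes type II beta, best known in brain and fat. It averaged 20.6 ± 1.91 CPM with fenbendazole and 16.9 ± 3.33 CPM with DMSO, a log2 fold change of 0.28 ± 0.20 that came to 0.01 with the offsets.

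The place of DMSO 11 among the DMSO libraries differed with the GC content of the transcripts. Of the 5 with a GC content under 45%, DMSO 11 was the lowest DMSO library for 4 and the highest for 0. Of the 5 with 45% or more, it was the lowest for 2, AKAP12 and AKAP13, and the highest for 3, PRKAR2A, AKAP8 and AKAP1. Relative to the mean log2 level of DMSO 10 and 12 it ran from -1.18 for AKAP9, with 38.2% GC, to 0.31 for AKAP1, with 53.4% GC. The part of base composition in these values was not tested beyond the offsets.

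On a per-length scale the order of the anchors differed between the groups. With fenbendazole AKAP12 led at 32.1 ± 1.15 FPKM, then C2orf88 at 21.9 ± 2.32, AKAP1 at 14.7 ± 0.75, AKAP11 at 11.5 ± 0.49, AKAP13 at 10.8 ± 0.91, AKAP8 at 9.17 ± 1.86 and AKAP9 at 7.88 ± 1.97 FPKM. The library values of AKAP11, AKAP13, AKAP8 and AKAP9 overlapped from each to the next, whereas AKAP12, C2orf88, AKAP1 and AKAP11 were separate from one another. With DMSO C2orf88 led at 83.8 ± 8.85 FPKM, then AKAP1 at 16.6 ± 2.91, AKAP13 at 13.4 ± 1.43, AKAP11 at 11.9 ± 3.39, AKAP8 at 9.31 ± 1.72, AKAP9 at 7.72 ± 4.48 and AKAP12 at 7.65 ± 0.71 FPKM. Below C2orf88, each transcript overlapped the next in this order.

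The 7 anchors summed to 108 ± 1.34 FPKM with fenbendazole and 151 ± 12.6 FPKM with DMSO. AKAP12 made up 30.6%, 28.4% and 30.1% of this sum in fenbendazole 7, 8 and 9, against 5.39%, 5.02% and 4.84% in DMSO 10, 11 and 12. C2orf88 made up 18.0%, 22.2% and 20.6% in the fenbendazole libraries, against 57.3%, 53.8% and 55.7% in the DMSO libraries. Neither share overlapped between the groups, which follows from the choice of these 2 genes. The other 5 anchors together came to 54.1 ± 1.63 FPKM with fenbendazole and 59.0 ± 4.08 FPKM with DMSO, which is -4.95 of the -42.4 FPKM by which the whole sum differed.

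**Figure D3:**
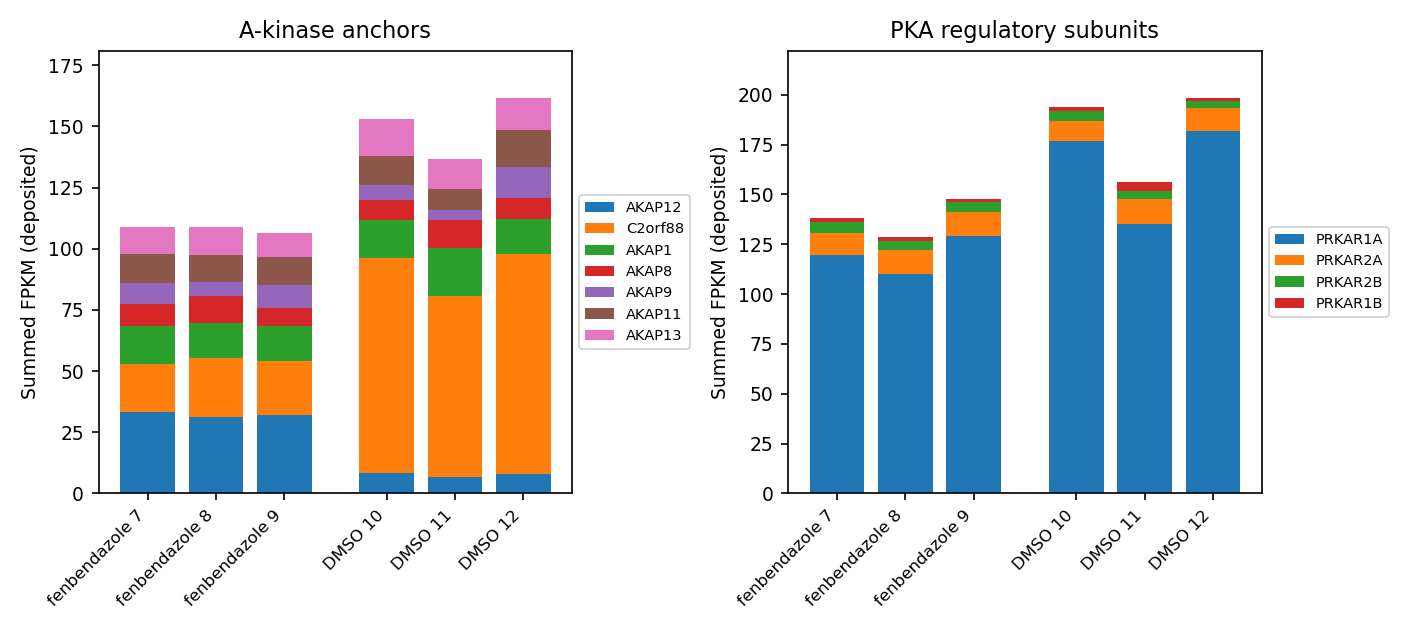
Deposited FPKM of the 7 anchors (left) and of the 4 PKA regulatory subunits (right), stacked for each fenbendazole and DMSO library. The AKAP12 segment is 28.4% to 30.6% of the anchor sum with fenbendazole and 4.84% to 5.39% with DMSO, the C2orf88 segment is 18.0% to 22.2% with fenbendazole and 53.8% to 57.3% with DMSO, and PRKAR1A fills most of every regulatory column.

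The 4 regulatory subunits, PRKAR1B included, summed to 138 ± 9.55 FPKM with fenbendazole and 183 ± 23.0 FPKM with DMSO. PRKAR1A gave 86.5% ± 1.04 of that sum with fenbendazole and 89.8% ± 2.83 with DMSO, a difference of -3.25 percentage points. DMSO 11, at 86.5%, lay within the fenbendazole range of 85.4% to 87.5%, whereas DMSO 10 and 12 lay at 91.1% and 91.7%. By counts, which are not per length, the PRKAR1A share was 82.7% to 83.5% with fenbendazole and 84.4% to 88.8% with DMSO, and the groups did not overlap. PRKAR2A gave 8.56% with fenbendazole and 6.30% with DMSO, and PRKAR2B 3.44% with fenbendazole and 2.27% with DMSO. The catalytic subunits PRKACA and PRKACB and the related kinase PRKX summed to 35.2 ± 1.38 FPKM with fenbendazole and 33.7 ± 2.59 FPKM with DMSO. The ratio of catalytic to regulatory FPKM was 0.256 ± 0.027 with fenbendazole and 0.188 ± 0.040 with DMSO. In FPKM the groups overlapped through DMSO 11, whose ratio of 0.234 exceeded the 0.227 of fenbendazole 9. By counts the ratio was 0.224 to 0.227 with fenbendazole and 0.150 to 0.184 with DMSO, and the groups did not overlap, DMSO 11 included. The ratio is a description, since 3 of its 4 regulatory subunits are members.

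Outside the 10 genes, 106 tested genes of 8 lists of cAMP and PKA signalling were counted in the same fit, and 8 rose and 1 fell. This is 8.49% of the lists, beside 4.03% of all tested genes. The lists were chosen with earlier results of these data known, so nothing is read from that difference. The median log2 fold change over the lists was 0.08, beside -0.06 over all tested genes. Among 22 genes listed as other A-kinase anchors, 2 rose, 1 fell and 19 did not pass, with a median of 0.08. PALM2AKAP2, whose AKAP2 portion binds PKA at the actin cytoskeleton, rose to 126 ± 8.11 CPM with fenbendazole, against 48.5 ± 8.81 CPM with DMSO (log2 fold change 1.38 ± 0.16, edgeR adjusted p = 0.00563). EZR, which encodes ezrin, a link between membrane and actin, averaged 1084 ± 19.0 CPM with fenbendazole and 678 ± 30.1 CPM with DMSO (log2 fold change 0.68 ± 0.11, edgeR adjusted p = 0.0146). CBFA2T3, a transcriptional corepressor that also binds PKA, fell to 2.23 CPM with fenbendazole, against 6.71 CPM with DMSO (edgeR adjusted p = 0.0492). AKAP8L and AKAP10 did not pass, with log2 fold changes of -0.10 and 0.16.

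None of 7 other PKA subunits and inhibitors passed, and their median log2 fold change was 0.17. PRKACA averaged 44.9 ± 2.72 CPM with fenbendazole and 39.6 ± 15.7 CPM with DMSO, and PRKACB 54.96 ± 3.57 CPM with fenbendazole and 48.9 ± 13.7 CPM with DMSO. DMSO 11 lay farthest from the other DMSO libraries for both, at 57.1 CPM for PRKACA and 33.0 CPM for PRKACB. Without that library PRKACA passed at a log2 fold change of 0.55 (edgeR adjusted p = 0.00631). PRKX, PKIA and PKIB had log2 fold changes of 0.13 ± 0.14, 0.28 ± 0.20 and 0.37 ± 0.50. Those of PRKAR1B and PKIG were -0.41 ± 0.45 and -0.51 ± 0.25. Without DMSO 11, PRKX, PKIA and PKIB stood at 0.06, 0.13 and 0.32, PRKAR1B at 0.27 and PKIG at -0.22. PKIB averaged only 1.05 CPM with fenbendazole and 0.812 CPM with DMSO. PKIA, PKIB and PKIG encode inhibitor peptides of the free catalytic subunit.

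None of 11 genes of cAMP synthesis passed (median log2 fold change -0.20), nor any of 13 cAMP phosphodiesterases (-0.21), 9 other cAMP effectors (0.13) or 8 CREB factors and coactivators (-0.00). These counts depend on DMSO 11. Without it, 1 rose and 1 fell in cAMP synthesis (median 0.02), and 1 and 2 among the phosphodiesterases (-0.27). Of the other effectors 0 passed (0.23), and 1 CREB factor or coactivator rose and 3 fell (0.04). In that fit 13.1% of all tested genes were higher and 9.23% lower. GNAS, which encodes the stimulatory G protein subunit of adenylyl cyclase, averaged 589 ± 13.6 CPM with fenbendazole and 606 ± 78.4 CPM with DMSO. PDE4D, a cAMP phosphodiesterase held by several anchors, averaged 56.6 ± 2.44 CPM with fenbendazole and 62.6 ± 14.0 CPM with DMSO, and passed without DMSO 11 at a log2 fold change of -0.31 (edgeR adjusted p = 0.026). Of 17 CREB target genes 3 rose, with a median of 0.48. FOS and EGR1 encode immediate early transcription factors that many signals besides cAMP induce. FOS averaged 29.03 CPM with fenbendazole and 12.5 CPM with DMSO (edgeR adjusted p = 0.0157), and EGR1 65.3 CPM with fenbendazole and 30.4 CPM with DMSO (edgeR adjusted p = 0.0424). FOSB, of the same class as FOS, averaged 2.34 CPM with fenbendazole and 0.351 CPM with DMSO (edgeR adjusted p = 0.0385), near the level of 3 counts in the DMSO libraries.

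Of 22 genes listed as enzymes and partners that anchors hold beside PKA, 3 rose and 0 fell, with a median of 0.15. Among all tested genes 3.11% rose and 0.921% fell. CDK5RAP2, a centrosome protein, averaged 181 ± 9.34 CPM with fenbendazole and 83.6 ± 16.3 CPM with DMSO (edgeR adjusted p = 0.0132). PCNT, the centrosome scaffold pericentrin, averaged 112 ± 4.61 CPM with fenbendazole and 72.8 ± 8.03 CPM with DMSO (edgeR adjusted p = 0.0463). Of the 9 calls in the lists, 8 were lost without DMSO 10, without fenbendazole 7 or without fenbendazole 8, 7 without fenbendazole 9, 4 without DMSO 12 and 0 without DMSO 11. PALM2AKAP2 kept its call in each of these fits, with an edgeR adjusted p of at most 0.0493. Without DMSO 11, 24 of the 106 genes of the lists rose and 13 fell, beside 13.1% higher and 9.23% lower among all tested genes in that fit.

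**Figure D4:**
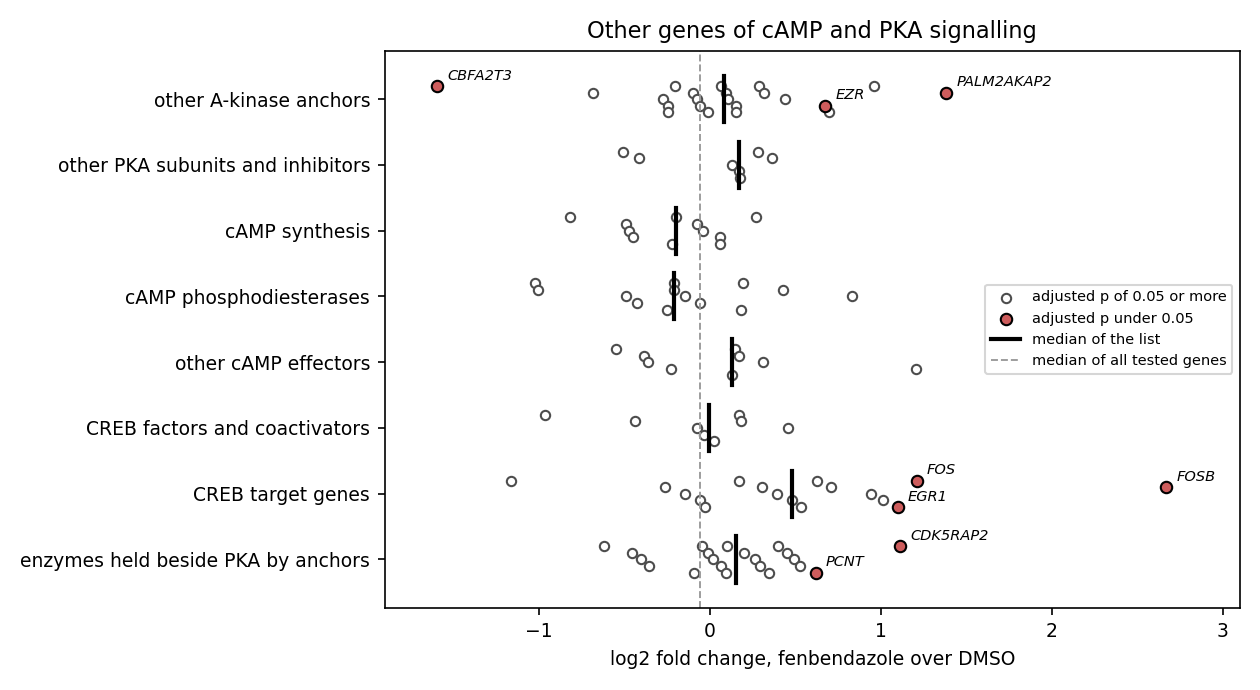
Log2 fold change, fenbendazole over DMSO, of the tested genes in 8 lists of cAMP and PKA signalling, without 1 gene that is not reported, with filled points for an edgeR adjusted p under 0.05, a thick bar at each list's median and a dashed line at the median of all tested genes. Filled points are 7 to the right (PALM2AKAP2, EZR, FOS, FOSB, EGR1, CDK5RAP2 and PCNT) and 1 to the left (CBFA2T3).

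The genes around AKAP12 and C2orf88 were read in the same fit. Within 500 kb of AKAP12, 7 named genes were tested, of which 0 rose and 1 fell. Among all tested genes 3.11% rose and 0.921% fell. The neighbour that fell was ESR1, which encodes estrogen receptor alpha and lies 298 kb downstream. It had 101, 102 and 105 CPM in fenbendazole 7, 8 and 9, against 199, 165 and 178 CPM in DMSO 10, 11 and 12 (log2 fold change -0.82 ± 0.12, edgeR adjusted p = 0.0125). ZBTB2, a zinc finger gene 5.56 kb downstream on the opposite strand, averaged 50.8 ± 5.69 CPM with fenbendazole and 26.4 ± 6.97 CPM with DMSO without overlap, but did not pass (log2 fold change 0.95 ± 0.22, edgeR adjusted p = 0.0628). It passed without DMSO 11 (log2 fold change 0.77, edgeR adjusted p = 0.000558). MTHFD1L, which encodes a mitochondrial folate enzyme and lies 138 kb upstream, averaged 94.6 ± 1.47 CPM with fenbendazole and 73.0 ± 5.90 CPM with DMSO without overlap, and passed when DMSO 11 was left out (log2 fold change 0.44, edgeR adjusted p = 0.0014, against 0.37 and 0.138 with all libraries). ZBTB2 and MTHFD1L were thus higher, like AKAP12, in every fenbendazole library than in any DMSO library, by unequal amounts. In the other direction, ESR1 and CCDC170 were lower without overlap, CCDC170 at 1.10 CPM with fenbendazole and 1.73 CPM with DMSO. PLEKHG1, ARMT1 and RMND1 overlapped between the groups. Over all tested genes, 17.0% were higher and 15.5% lower without overlap, and a shared local change was not tested. Within 500 kb of C2orf88, 0 of 16 tested genes passed, beside 4.03% of all tested genes. The log2 fold changes of these 16 ran from -1.24 for SLC40A1 to 0.69 for PMS1, whose span ends 1.98 kb upstream. SLC40A1 was lower without overlap, at 1.29 CPM with fenbendazole and 3.05 CPM with DMSO. WDR75 and HNRNPCP2 were higher without overlap, with log2 fold changes of 0.46 and 0.65.

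**Figure D5:**
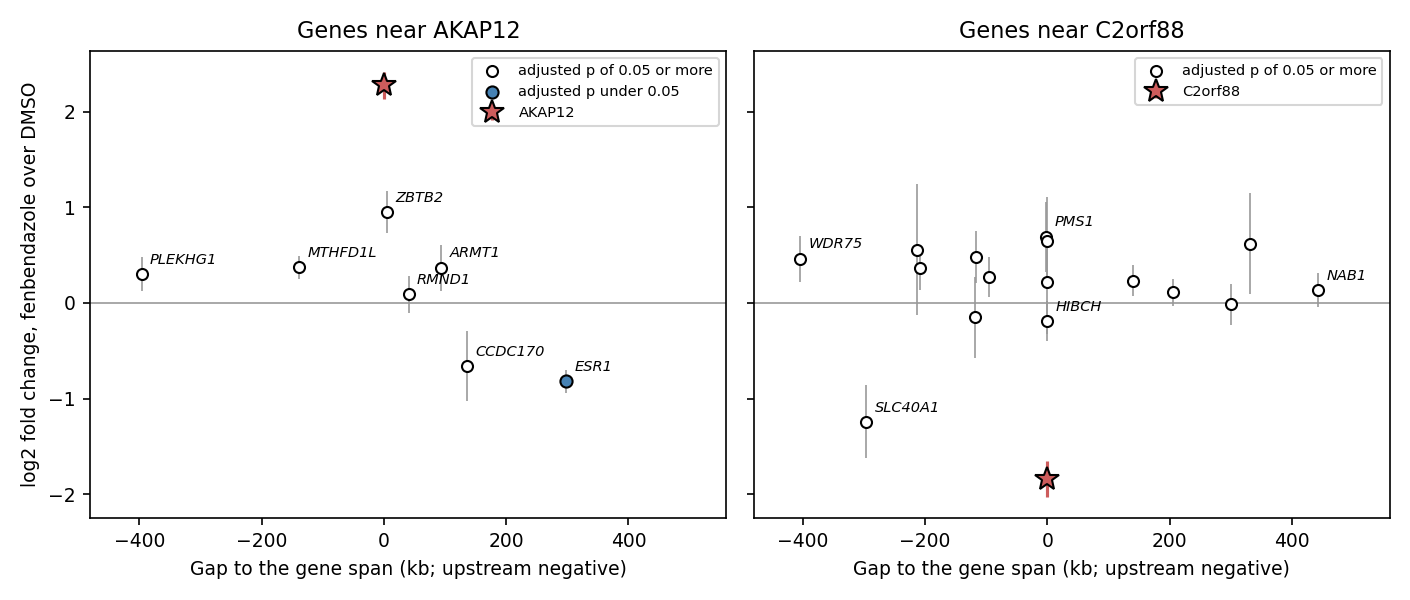
Log2 fold change, fenbendazole over DMSO (bar 1 SE), of tested genes within 500 kb of AKAP12 (left) and C2orf88 (right), by the gap in kb between their spans, with the anchor itself as a star at 0. ESR1, at 298 kb and -0.82, is the only filled point, and no neighbour reaches the 2.28 of AKAP12 or the -1.84 of C2orf88.

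The transcripts most like these 2 anchors over the 6 libraries were sought among 11941 tested genes with a mean of at least 5 CPM, by the root mean square difference of their centred log2 CPM. For AKAP12 they were F3 (0.0752), which encodes tissue factor, TRIP13 (0.0801), an ATPase of the spindle checkpoint, the histone gene H2BC5 (0.0973), CDCA2 (0.0976), a chromatin-bound phosphatase subunit of mitosis, and CCNB1 (0.102), which encodes cyclin B1. F3 averaged 725 CPM with fenbendazole and 155 CPM with DMSO. For C2orf88 they were SPTLC3 (0.147), a serine palmitoyltransferase subunit, KLHL14 (0.202), the noncoding RNA gene CERNA2 (0.208), VAV3 (0.209), a guanine nucleotide exchange factor, and TGFB3 (0.232), a ligand of the TGF-beta family. SPTLC3 averaged 20.1 CPM with fenbendazole and 62.6 CPM with DMSO. The nearest profiles of C2orf88 were farther from it than those of AKAP12. All of these likenesses rest on the same 6 libraries and are a description.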

How the data were processed

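The authors deposited a table of read counts per gene, whole numbers not normalised, for 6 poly(A) libraries of SKOV3 cells. The same table holds FPKM values, per the file headers. The submitters' processing notes name CASAVA 1.8, the aligner HISAT2 2.1.0, the assembler StringTie 1.3.4b, the package edgeR and the build GRCh38. Which program counted reads, with which strand setting and annotation, is not given in the sources used here.

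Counts were fitted with edgeR 4.0.16 (R 4.3.3): TMM scaling, edgeR's filter on low counts, the robust quasi-likelihood F test and Benjamini-Hochberg adjustment over 17363 genes, and the SE is the log2 fold change over the root of F. CPM use TMM library sizes and are given as mean ± SD. No pair of replicates agreed within sampling noise (lowest chi-square, divided by its degrees of freedom, 5.34). This value was 91.2 for DMSO 10 and 11 and 100.3 for DMSO 11 and 12, against 9.37 for DMSO 10 and 12. The members and lists were chosen with earlier results of these data known. Text names all 10 members, in each list up to 4 genes past the threshold, 13 pathway genes whatever their values (2 of them also past the threshold), tested genes within 500 kb of AKAP12 or C2orf88, and the 5 nearest profiles of each.

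Alternatives were other scalings and filters, DESeq2 1.42.0, limma-voom (limma 3.58.1), limma on log2 of FPKM plus 1 or 0.1 where the mean FPKM was at least 1, offsets for GC content and length (GENCODE release 29, 97.8% of tested genes), an adjusted p of 0.01 and leaving out each library. On counts simulated for 16863 genes, the fit recovered 1 of 67 genes at a true 1.5-fold change, 16 of 67 at 2-fold and 51 of 66 at 4-fold, and made 4 false calls. Figures used matplotlib 3.10.9. Counts and medians over the pathway lists include 1 gene whose own values are not reported here.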

Additional observations from a re-analysis of the deposited data

How the results depend on the processing

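Offsets for GC content and length gave 3701 called genes (1970 higher, 1731 lower with fenbendazole), against 700 (540 and 160). They gave 38 calls in the cAMP and PKA lists, against 9. The log2 fold changes under the offsets were -2.13 for C2orf88, -0.11 for AKAP13, -0.67 for PRKAR1A and 0.0107 for PRKAR2B. DESeq2 called 1697 genes (998 and 699) and 15 in the lists. An adjusted p of 0.01 left 210 (193 and 17) and 1 in the lists. FPKM with a pseudocount of 1 or 0.1 left 5 and 5 in the lists and gave AKAP12 a log2 fold change of 1.94 and 2.06. The cause of these shifts was not tested, apart from the stricter threshold. With upper-quartile scaling, 455 genes were called higher and 231 lower.

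Leaving out each library in turn gave 147 to 3946 called genes (139 to 2313 higher, 8 to 1633 lower) and 1 to 37 in the lists, each highest without DMSO 11. The log2 fold change was then 2.19 to 2.35 for AKAP12, -2.001 to -1.74 for C2orf88, -0.49 to -0.31 for PRKAR1A, -0.29 to -0.16 for AKAP13, and the PRKAR1A share differed by -4.87 to -2.28 percentage points. The catalytic to regulatory ratio differed by 0.0538 to 0.0912. Over 15 settings AKAP12, C2orf88, AKAP1, AKAP13 and the 3 regulatory subunits kept their sign, while AKAP8 changed it in 3, AKAP9 in 2 and AKAP11 in 5. No paired analysis was possible because the fenbendazole libraries are numbered 7 to 9 and the DMSO libraries 10 to 12.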

Other observations

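For AKAP12 the ratio of deposited counts to deposited FPKM, scaled to each library's other genes, was higher with fenbendazole than with DMSO by 0.13 on the log2 scale. Its values were 0.11, 0.10 and -0.02 in fenbendazole 7, 8 and 9, against -0.07, -0.06 and -0.06 in DMSO 10, 11 and 12. The difference was larger in absolute size than that of 89.9% of 10330 genes with enough counts, while C2orf88 differed by 0.04 and PRKAR1A by -0.01. The cause was not tested.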
